A study of Homo sapiens with 34 samples.

Results

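A stretch of 90 kb on chromosome 8 (hg38), from 35.4 kb before to 54.6 kb after the lower end of MYC, holds the oncogene MYC (127735434 to 127742951) and, just before it, the long non-coding RNA gene CASC11 (127700608 to 127733967). Members were all deposited peaks whose midpoint lay in this stretch: 408 of the 1034303 peaks in 34 lists, 384 of them in COLO320 DM and 24 in PC3 DM. They were split into those before MYC, which lie almost wholly in CASC11, those in the MYC body, and those between MYC and the start of PVT1, the long non-coding RNA gene that begins at 127794524. MYC and CASC11 were the only genes of the RefSeq table (GRCh38.p14) that overlapped the 90 kb. The table gives neither strand nor exons, so positions are stated from the lower end of MYC, at 127735434, and no peak is assigned to an exon, intron or UTR.

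MYC encodes a transcription factor that drives growth and division, and it is among the genes most often amplified in cancer. CASC11 is transcribed from the neighbouring DNA and has been studied mostly in colorectal cancer. Methylation of lysine 9 of histone H3 is best known from silent chromatin, where its higher degrees are bound by heterochromatin proteins, although the lowest degree also occurs in active genes. Extrachromosomal DNA (ecDNA) consists of circles outside the chromosomes that carry oncogenes and their enhancers in many copies.

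The mark was profiled by CUT&Tag, where a transposase tethered to an antibody cuts and tags the chromatin around its target. The rabbit antibody is called anti-H3K9me in the labels, with no degree of methylation. PC3 DM cells come from a prostatic adenocarcinoma and COLO320 DM cells from a colorectal adenocarcinoma, and both carry MYC on ecDNA. Cells were transfected with 700 ng of a guide RNA plasmid, with a reagent that differed between the lines, and 50000 nuclei per library were processed 3 days later.

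COLO320 DM had 3 libraries for each of 6 plasmids: the empty vector, the single perturbations ecSE1, ecSE2, ecSE3 and ecSE4, and the combination ecSEcombo. For PC3 DM there were 2 vector libraries, 3 each for ecSE1, ecSE2, ecSE6 and the combination, and 2 for ecSE7. The labels give neither the effector protein, nor the positions of the elements, nor the content of the combination, nor whether ecSE1 or ecSE2 stands for the same DNA in the 2 lines. No source says that replicates were grown separately, so the p-values rest on a spread between libraries that may be technical. Line cannot be told apart from anything else that differed between the lines' experiments, the reagent included.

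The lists held from 9385 to 125214 peaks in COLO320 DM and from 10288 to 102290 in PC3 DM. Depth is unknown without read totals, and counting intervals are therefore left out. Whole fragments at each summit were recovered from the authors' fold and p-value. The lowest local background, in fragments, ran from 0.501 to 0.872 in COLO320 DM lists and from 0.164 to 0.405 in PC3 DM lists. A summit's height below is its fragments divided by that lowest background of the same list. A fold, taken from the deposited lists, divides the summit by the background around it, and a rank orders a list by q-value, then fold, with rank 1 the strongest peak. Rank 1 was at RNU6-1, a U6 small nuclear RNA gene on chromosome 15, in 24 of the 34 lists, and at no member in any.

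In COLO320 DM with the empty vector the 90 kb already held called peaks, but MYC itself hardly any. The COLO320 DM vector libraries had 17, 15 and 25 member peaks covering 7289, 7594 and 14213 bp, a mean of 9699 ± 3912.5 bp (SD, n = 3), or 10.8% of the stretch. Before MYC, mostly in CASC11, peaks covered 3561, 4438 and 7816 bp. Between MYC and PVT1 they covered 3728, 3156 and 6150 bp. In the MYC body 2 vector libraries had no peak and the third had 247 bp.

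**Figure D1:**
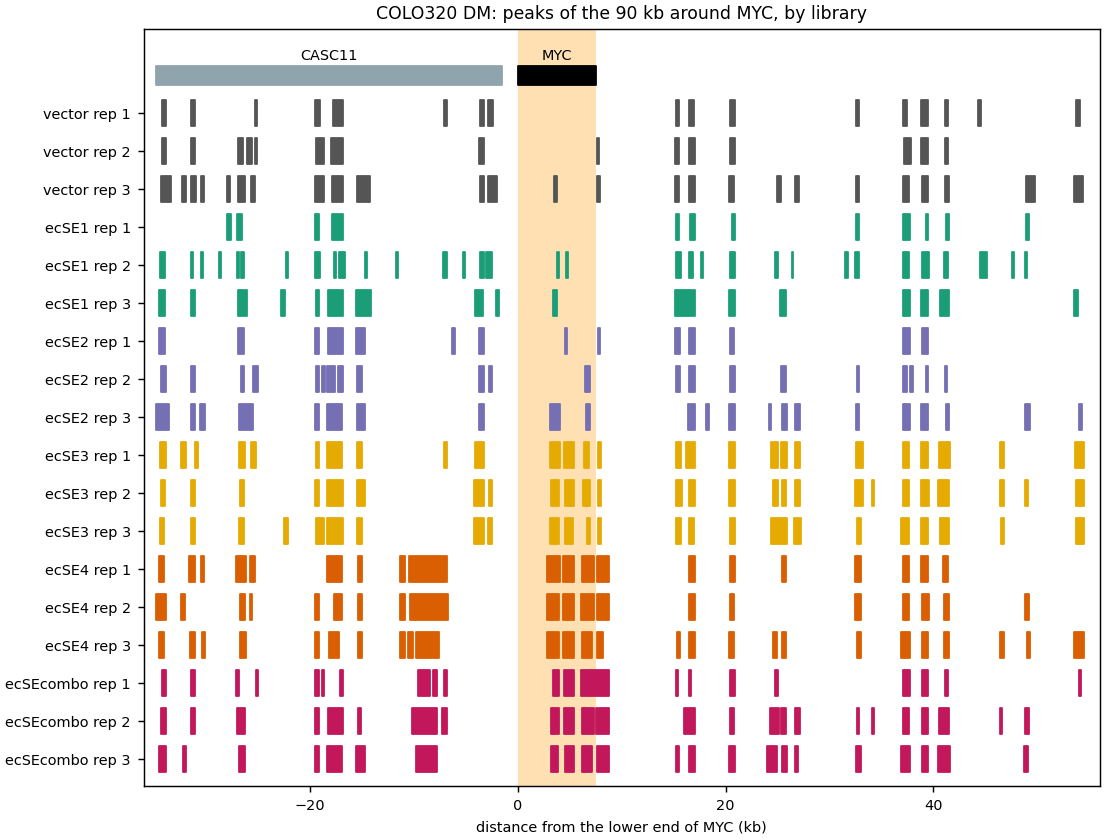
Peaks of the 90 kb in the 18 COLO320 DM libraries, 1 row per library, against distance from the lower end of MYC in kb, with the gene bodies of CASC11 and MYC above and MYC shaded. Each bar is a deposited peak from its start to its end, drawn to scale. The ecSE4 and ecSEcombo rows have broad peaks about 9 kb before MYC and in the MYC body, and none next to its lower end.

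Summits chained at 250 bp formed 61 sites over the COLO320 DM libraries, of which 12 had a peak in every vector library and 19 occurred in 1 library only. Sites 16.6, 20.6 and 37.3 kb after the lower end of MYC, all between MYC and PVT1, had a peak in 18 of 18 libraries. The site at 37.3 kb kept its place closely, with summits from 37303 to 37382 bp. Sites 34.1, 26.6 and 19.3 kb before MYC, all in CASC11, had a peak in 17 of 18. Many positions of the mark in CASC11 and beyond MYC were thus shared by all plasmids, vector included.

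Heights with the vector differed between these shared sites. At 37.3 kb the height was 280 ± 23.4 (SD, n = 3), and at 20.6 kb it was 299 ± 37.5. In CASC11 it was 277 ± 14.0 at 34.1 kb before MYC and 306 ± 14.8 at 19.3 kb before. The fold of all 384 COLO320 DM members ran from 1.43 to 6.03 with a median of 2.31. Their median summit of 160 fragments stood on a median local background of 71.4 fragments, 98.6 times the lowest background of the list.

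Among 43 stretches of 90 kb laid end to end over 2 Mb on each side of MYC, the one with MYC and CASC11 stood at place 14 from the top in vector libraries, where the median stretch had 461 bp covered and the fullest 25192 bp. It stood at place 12 with ecSE3, 9 with ecSE4, 10 with the combination, and 14 with ecSE1 and ecSE2.

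The first comparison set each plasmid against the vector by the bases covered in the 90 kb. With ecSE4 they were 17064, 15906 and 16493, a mean of 16488 ± 579 bp (SD, n = 3). With ecSE3 they were 16456, 15975 and 15292, a mean of 15908 ± 585 bp. Every ecSE3 and ecSE4 library lay above every vector library. The combination had 10950, 17203 and 16532 bp and overlapped the vector. The ecSE1 libraries had 5087, 10557 and 12471 bp, and the ecSE2 libraries 7795, 8246 and 13349 bp. All 3 ecSE2 libraries lay in the range of the vector, while 1 ecSE1 library lay below it and the other 2 within it.

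The difference from the vector was 6789 bp for ecSE4 and 6209 bp for ecSE3 (two-sided exact permutation p = 0.1 each, adjusted p = 0.3333). It was 5196 bp for the combination (exact permutation p = 0.2, adjusted p = 0.5), -327 bp for ecSE1 (exact permutation p = 1) and 98.0 bp for ecSE2 (exact permutation p = 0.9). None passed a threshold of 0.05. With 3 libraries against 3 the smallest possible p is 0.1, so none could. The p-values were adjusted by Benjamini-Hochberg over the 10 such comparisons of both lines.

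A second set of comparisons asked where in the stretch the differences lay. It joined the 3 libraries of a single plasmid with the 3 of the combination and set these 6 against the other 12 libraries of COLO320 DM, on the assumption that the combination includes each element. Because the comparisons reuse the combination and largely the same remaining libraries, they depend on each other. The 16 of both lines were adjusted together.

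In the MYC body, ecSE4 libraries had 3403, 3332 and 3144 bp covered and combination libraries 2908, 2851 and 2521 bp. The ecSE3 libraries followed with 2331, 2244 and 1909 bp. The other 9 libraries, of the vector, ecSE1 and ecSE2, ran from 0 to 1226 bp. All 6 ecSE4 and combination libraries thus lay above all 12 others, and the ecSE3 libraries lay between them and the rest.

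On average 3293 ± 134 bp of the 7518 bp of MYC, 43.8%, lay under peaks with ecSE4, 36.7% with the combination, 28.7% with ecSE3 and 1.10% with the vector. Covered length in MYC was higher in the 6 ecSE4 and combination libraries, at 3027 bp, than in the 12 others, at 786 bp (exact permutation p = 5.39e-05, adjusted p = 0.000862). With the combination left out, the 3 ecSE4 libraries exceeded the 12 remaining ones by 2507 bp (exact permutation p = 0.0022, adjusted p = 0.0176). By the number of peaks the difference did not pass, at 1.58 peaks (exact permutation p = 0.00997, adjusted p = 0.0797), since ecSE3, ecSE4 and combination libraries each had 3 peaks in MYC.

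For ecSE3 the MYC body had 2461 bp covered in 6 libraries against 1069 bp in 12 (exact permutation p = 0.0317, adjusted p = 0.127), which did not pass. The 12 others here include the ecSE4 libraries, which had the highest values. As a percentage of all bases covered by the list, an alternative added after seeing the data, the difference was 0.0225 points (exact permutation p = 0.00614, adjusted p = 0.0328). By the highest summit, added in the same way, the sign turned, at -178 times the lowest background (exact permutation p = 0.771).

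**Figure D2:**
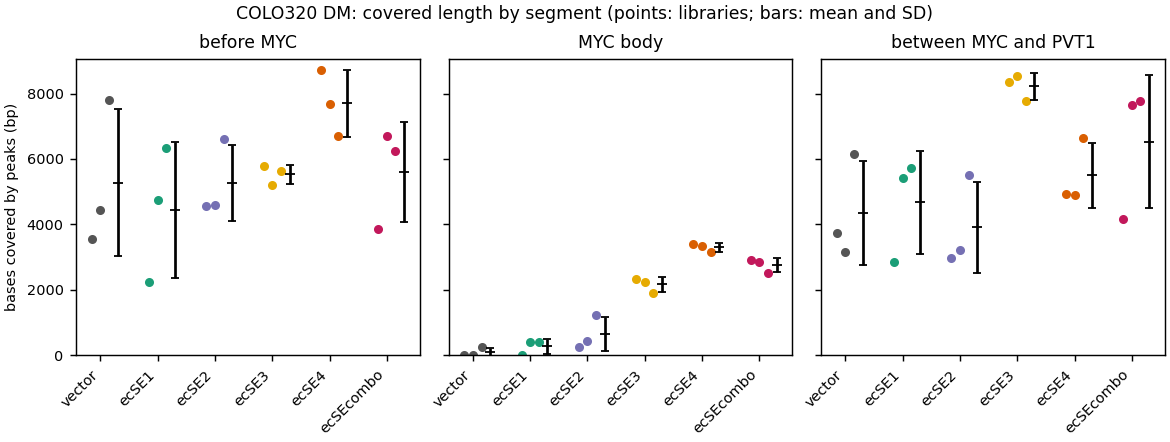
Bases covered by peaks in COLO320 DM libraries, by plasmid, before MYC, in the MYC body and between MYC and PVT1. Points are libraries, and the bar beside them is the mean with the SD (n = 3). In the MYC body ecSE4 lay between 3144 and 3403 bp and the vector between 0 and 247 bp.

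Between MYC and PVT1 the ecSE3 libraries stood highest, with 8349, 8538 and 7767 bp. Combination libraries had 4176, 7647 and 7777 bp, ecSE4 libraries 4930, 4898 and 6656 bp, and vector libraries 3728, 3156 and 6150 bp. Every ecSE3 library but the lowest exceeded every other library, and the lowest was passed by 1 combination library.

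The 6 ecSE3 and combination libraries had 7376 bp here against 4604 bp in the other 12 (exact permutation p = 0.00215, adjusted p = 0.0172). With the combination left out the difference was 3614 bp (exact permutation p = 0.0022, adjusted p = 0.0176). It did not pass by number of peaks, at 2.75 peaks (exact permutation p = 0.0642, adjusted p = 0.342), nor with each peak counted whole by its midpoint, at 2563 bp (exact permutation p = 0.00716, adjusted p = 0.0573).

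Before MYC no single plasmid passed by covered length. The ecSE4 libraries had 8731, 7676 and 6693 bp, the combination 3866, 6705 and 6234 bp and the vector 3561, 4438 and 7816 bp, so that they overlapped. The 6 ecSE4 and combination libraries had 6651 bp against 5123 bp in the 12 others (exact permutation p = 0.0615, adjusted p = 0.197). By the height of the highest summit, an alternative added after seeing the data, the same difference was 2742 times the lowest background (exact permutation p = 5.39e-05, adjusted p = 0.000431). That measure takes up the summit about 9.4 kb before MYC, which had been seen when it was added. By number of peaks the sign turned, at -0.33 peaks (exact permutation p = 0.848). For ecSE1 and ecSE2 no segment passed, with adjusted p of 0.743 or more.

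To place the differences, the covered length of 5 kb bins was compared in the same way over 353 bins within 2 Mb of MYC, of which 17 lay in the 90 kb. For ecSE4, 2 bins passed in the whole window, or 0.567% of those tested, and both lay here. In the first, 127725001 to 127730000 inside CASC11, ecSE4 and combination libraries had 2744 ± 803 bp (SD, n = 6) and the others 101 ± 153 bp (n = 12). In the second, 127740001 to 127745000, which holds the upper end of MYC, they had 3050 ± 355 bp and the others 569 ± 667 bp. The adjusted p was 0.00951 for each (exact permutation), and in both bins the 6 libraries did not overlap the 12, which also held for 0.567% of the bins. With the combination left out 0 bins passed for any COLO320 DM plasmid, with a smallest adjusted p of 0.124 for ecSE4 (exact permutation, 3 libraries against 12). The smallest p of 3 against 12 passes this adjustment only if many bins share it. This outcome therefore cannot tell whether the 2 calls depend on the combination. With each bin scored only as having at least 500 bp covered or not, 1 bin of the whole window passed for ecSE4.

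Between these bins lies 127730001 to 127735000, the upper end of CASC11 next to the start of MYC. It had no peak in any of the 6 ecSE4 and combination libraries and a peak in 11 of the 12 others, with 0 bp against 802 ± 391 bp (exact permutation p = 0.000646, adjusted p = 0.0570). This missed the threshold.

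With ecSE3 replicate 2 left out, 5 bins of the whole window passed for ecSE4, and how many lay in the 90 kb is not stated. For ecSE3, 2 bins passed in the window (0.567%), none of them in the 90 kb, and 5 passed in the window without combination replicate 1. Here 4 of 17 bins had an unadjusted p under 0.05, against 13 of 353 in the window, led by 127760001 to 127765000 with 1291 ± 575 bp against 365 ± 355 bp (exact permutation p = 0.000916, adjusted p = 0.108). For ecSE1, 2 bins passed in the window (0.567%), falling to 0 without any 1 of its own 3 libraries or combination replicate 2 or 3, and for ecSE2 3 bins (0.85%), none of them here, where no bin had an unadjusted p under 0.05 for either. Adjusted over all 40477 tested bins of the genome, no bin passed the exact permutation test for any plasmid (0%), with unadjusted p under 0.05 in 811 to 1612 bins. In PC3 DM none of 63046 passed either, with 1572 to 3997 bins at an unadjusted p under 0.05 (exact permutation). Over so many bins the smallest possible p passes only if many bins share it. Even the fully separated ecSE4 bins had an adjusted p of 0.727 (exact permutation), so these outcomes cannot decide about single bins.

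**Figure D3:**
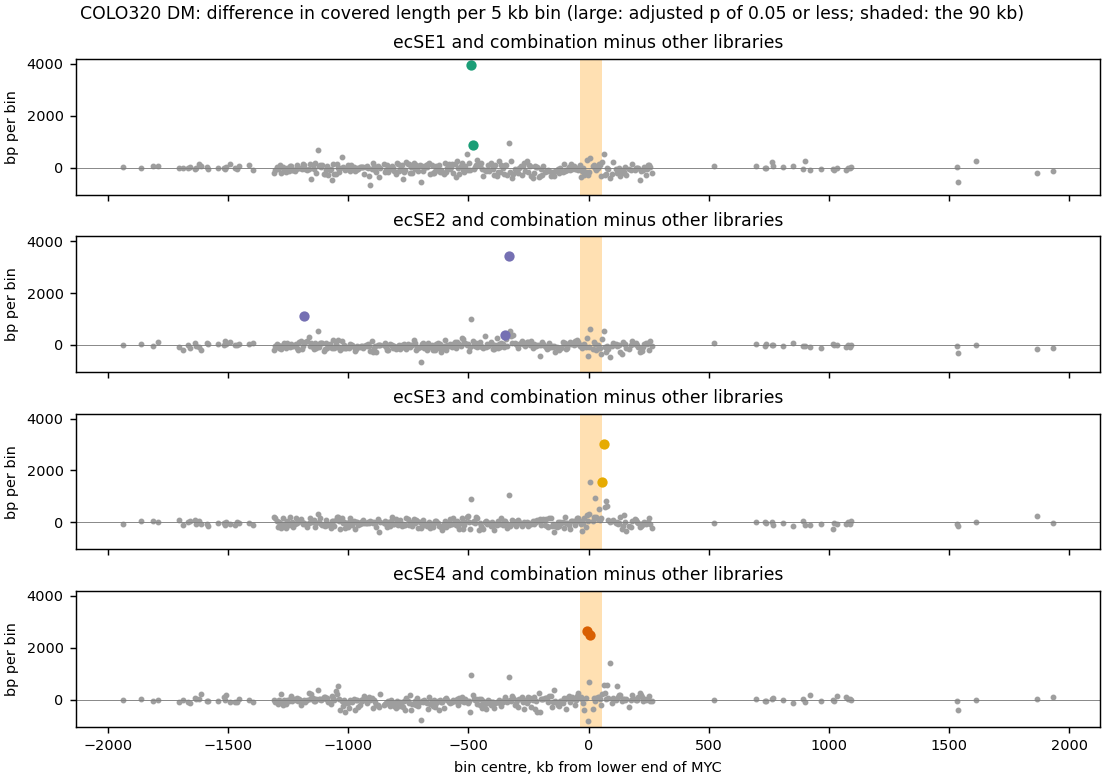
Difference in covered length of each 5 kb bin within 2 Mb of MYC, in bp, between the 6 libraries of a single plasmid with the combination and the other 12 COLO320 DM libraries, against the bin's distance from the lower end of MYC in kb. Large points had an adjusted p of 0.05 or less, and the 90 kb is shaded. Both large points of ecSE4 lie in the shaded stretch, and those of the other plasmids lie outside it.

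The peaks behind the ecSE4 bins were among the strongest of their lists. Rank 1 was at RNU6-1 in 2 ecSE4 lists and on chromosome 16 in the third. In each of the 3 ecSE4 lists rank 2 was a peak in CASC11, and rank 3 a peak at the end of the MYC body. In replicate 1 the CASC11 peak ran from 127725016 to 127728590 and the MYC peak from 127741573 to 127742729. In the combination the CASC11 peak ranked 9, 11 and 15 and the MYC peak 10, 13 and 13. No library of the vector, ecSE1, ecSE2 or ecSE3 had a summit at the CASC11 site.

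The summit in CASC11 lay 9377 or 9376 bp before MYC in all 6 libraries, and that in MYC at 6911 bp in all 6, so the summits were 16288 or 16287 bp apart. In ecSE4 libraries the CASC11 summit held 3816, 3089 and 3023 fragments, and in the combination 824, 1270 and 1089. The MYC summit held 4655, 3883 and 3731 fragments with ecSE4 and 1071, 1780 and 1748 with the combination. The ecSE4 libraries had the higher summit at both sites without overlap.

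Divided by the lowest background, the CASC11 summit was 4450 ± 379 high with ecSE4 (SD, n = 3) and 1612 ± 41.8 with the combination, a ratio of 2.76. The MYC summit was 5502 ± 414 and 2309 ± 189 high, a ratio of 2.38. Both differences had an exact permutation p = 0.1, the smallest that 3 against 3 can give. The fold over the surrounding background was close in the 2 groups, 5.24 ± 0.302 and 5.55 ± 0.444 at the CASC11 site (exact permutation p = 0.5) and 3.85 ± 0.202 and 3.90 ± 0.19 at the MYC site (exact permutation p = 0.8). A p that misses the threshold does not show that the folds were equal. The local background differed too: it was 852 ± 119 times the lowest with ecSE4 and 290 ± 16.6 times with the combination at the CASC11 site, a ratio of 2.94, and the ratio was 2.42 at the MYC site.

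The same 2 groups had further peaks in MYC. A summit at 3413 bp stood in 5 of the 6 libraries, with a height of 3142 ± 357 in ecSE4, and one at 5090 bp in 4 of the 6, with a height of 3754 ± 261 in ecSE4. Beyond the end of MYC, a peak about 7.7 kb from its lower end had a height of 2914 ± 339 with ecSE4, where 2 vector libraries had 132 ± 25.5. In ecSE3 the peaks at these places were far lower, with 171 ± 11.3 at 3.5 kb and 164 ± 20.3 at 6.9 kb, although they covered much of the gene.

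**Figure D4:**
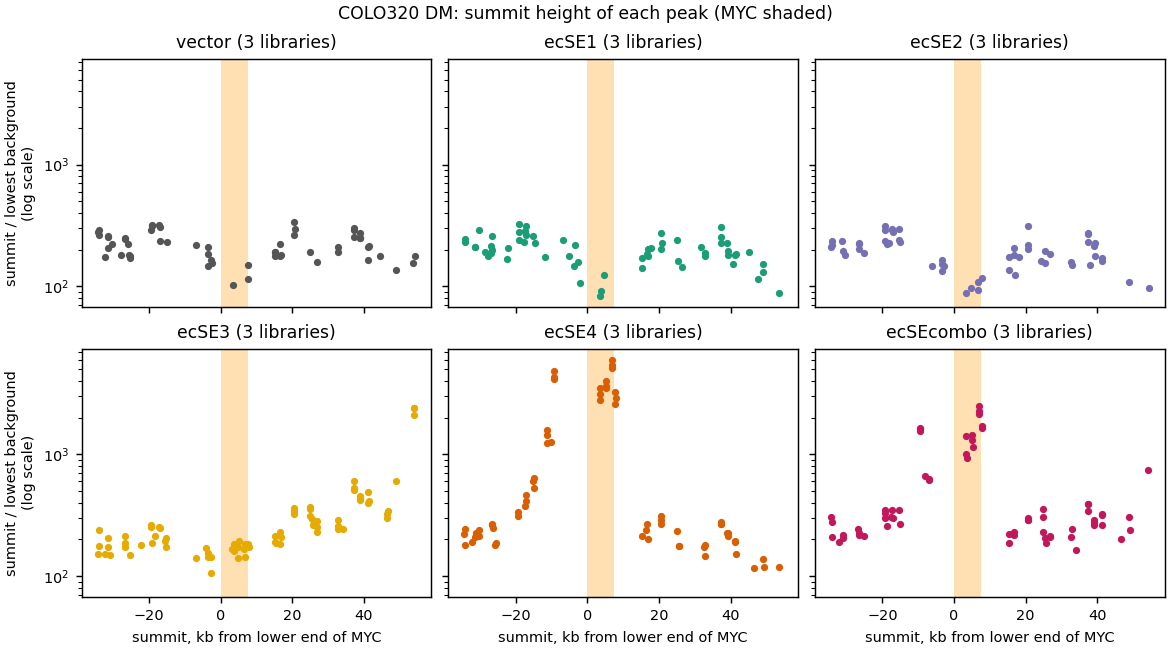
Height of every member summit in COLO320 DM, as fragments divided by the lowest background of its list on a log scale, against distance from the lower end of MYC in kb, 1 panel per plasmid with 3 libraries each and MYC shaded. With the vector, ecSE1 and ecSE2 heights stay in a narrow band that dips around MYC. With ecSE4 and the combination they climb towards 9 kb before MYC and 7 kb after its lower end, and with ecSE3 towards 54 kb.

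Within 12 kb before and 9 kb after the lower end of MYC, the vector's 9 peaks had a median height of 154 and a median local background of 57.8 times the lowest. For the 19 ecSE4 peaks there the medians were 3489 and 1301, and for the 17 combination peaks 1450 and 535. In the rest of the 90 kb the medians of the vector were 223 and 99.9, those of ecSE4 228 and 99.6, and those of the combination 264 and 109. Near MYC the summits and the background around them were thus both higher with ecSE4 than with the vector, while the medians in the rest of the stretch were close. Of 19 ecSE4 peaks near MYC, 16 were among the 100 strongest of their list, against 0 of 47 in the rest of the 90 kb and 0 of 9 for the vector near MYC. This zone was chosen after its values were seen. Peaks of the 3 libraries of a group were pooled, so a site can count once per library, and the peaks are not replicates.

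Farthest out in CASC11 the ecSE4 heights followed no single order. At 6 sites from 34.1 to 25.3 kb before MYC their means ran from 185 to 260, with the lowest at 25.3 kb. At 26.6 kb before MYC the height was 260 ± 10.3 with ecSE4 and 247 ± 0.712 in 2 vector libraries. At 15.0 kb before it was 593 ± 54.1 in the 3 ecSE4 libraries and 230 in 1 vector library. The fold at that site lay between 1.43 and 1.65 with ecSE4 and was 2.16 in the vector library, as the local background was 394 times the lowest with ecSE4 and 106 times with the vector.

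The peaks nearest to the lower end of MYC went the other way in the lists. A site 3.4 kb before MYC had a peak in all 3 vector libraries, with heights of 180 ± 31.7, and in 9 COLO320 DM libraries in all, none of them of ecSE4 or the combination. The stretch free of peaks around the lower end of MYC ran over 9682, 9505 and 10457 bp with ecSE4 and 10251, 10059 and 10961 bp with the combination, and over 5501 to 17579 bp with the vector. In ecSE3 libraries it was 6345, 5715 and 5600 bp. A peak is called against the background around it, which near MYC was higher with ecSE4 and the combination, and the part of that background in the missing peaks was not tested.

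In ecSE3 the highest members lay at the far end, next to PVT1. They were not the highest peaks of this region. Just past the 90 kb, near the start of PVT1, a peak ranked 3, 2 and 2 in the ecSE3 lists, with 7098, 5924 and 5546 fragments. A summit 53993, 53993 and 53987 bp after the lower end of MYC held 2099, 1833 and 1466 fragments and ranked 49, 38 and 59. Its height was 2297 ± 181 (SD, n = 3), with a fold of only 1.67 to 1.87, since the local background was 1304 times the lowest. The combination had a peak at this site in 1 library, with a height of 743 and rank 831. The vector had one there in 1 library, with a height of 177.

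Nearer to MYC the ecSE3 heights were lower. At 41.3 kb the height was 434 ± 51.3 with ecSE3, 302 ± 32.7 with the combination and 196 ± 26.9 with the vector. At 37.3 kb, a site of all libraries, it was 549 ± 53.6 with ecSE3, with ranks from 55 to 83, 375 ± 29.1 with the combination and 280 ± 23.4 with the vector. At 20.6 kb it was 343 ± 18.5 with ecSE3 and 299 ± 37.5 with the vector. In CASC11, at 34.1 kb before MYC, ecSE3 had 190 ± 44.6.

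Compared by the highest summit between MYC and PVT1, which was an alternative added after seeing the data, ecSE3 with the combination exceeded the others by 894 times the lowest background (exact permutation p = 0.11, adjusted p = 0.353). The 12 others include the ecSE4 libraries, whose peak 7.7 kb from the lower end of MYC lies past the gene's end and so in this segment.

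PC3 DM had fewer members than COLO320 DM, with a lower median summit and a higher median fold. Its 16 libraries had 24 member peaks against 384, covering 476 bp on average against 12693 bp (permutation test with 100000 resamples, p = 1e-05, the smallest they can give). With the vector alone COLO320 DM had 9699 bp and PC3 DM 0 bp, 3 libraries against 2 (exact permutation p = 0.1, the smallest possible). The PC3 DM member peaks held a median of 18.5 fragments on a local background of 10.8 times the lowest, against 160 fragments and 98.6 times in COLO320 DM. Their median fold was 4.67, against 2.31 in COLO320 DM. The part of copy number in these differences between the lines was not tested.

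**Figure D5:**
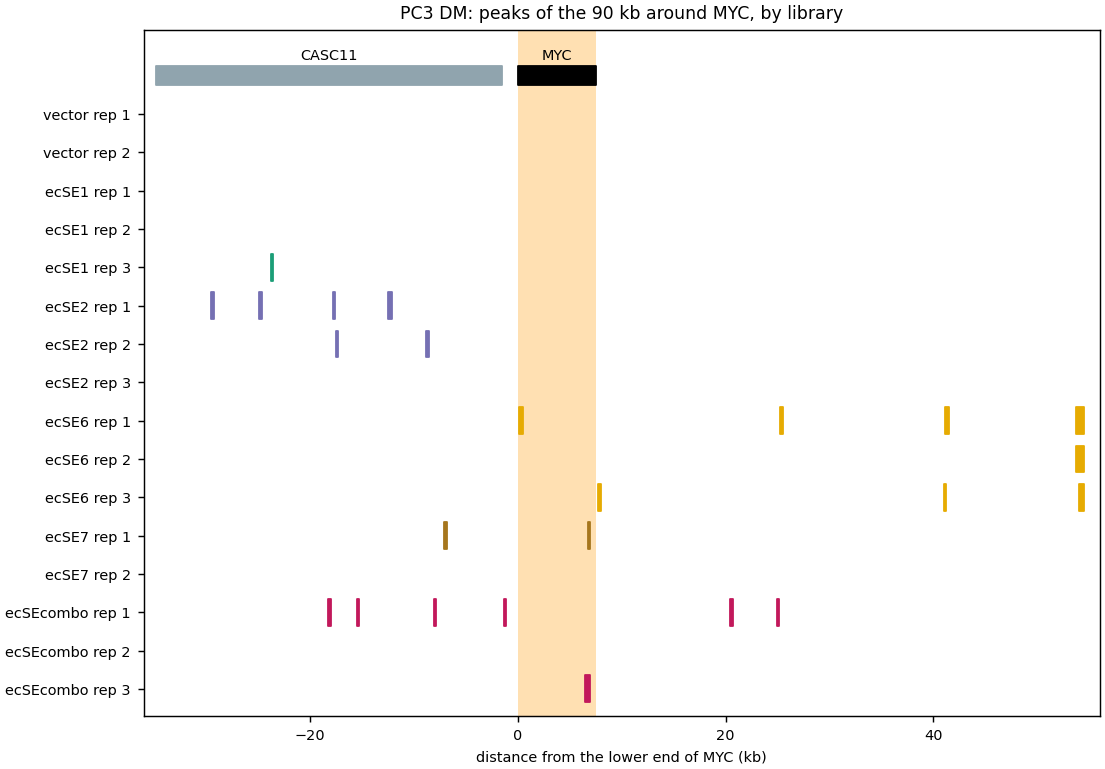
Peaks of the 90 kb in the 16 PC3 DM libraries, 1 row per library, against distance from the lower end of MYC in kb, with CASC11 and MYC above and MYC shaded. Each bar is a deposited peak. Both vector rows are empty, and the 3 ecSE6 rows share a peak at the right edge, about 54 kb after the lower end of MYC.

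In PC3 DM, ecSE6 libraries had 1780, 773 and 1005 bp covered, and both vector libraries none. The ecSE2 libraries had 1151, 567 and 0 bp, the combination 1277, 0 and 478 bp, the ecSE1 libraries 0, 0 and 193 bp, and the ecSE7 libraries 387 and 0 bp. The ecSE6 libraries thus had peaks in 3 of 3 lists. Their mean of 1186 bp lay above the vector without overlap (exact permutation p = 0.1, the smallest possible, adjusted p = 0.3333).

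The 6 ecSE6 and combination libraries had 886 bp against 230 bp in the other 10 libraries (exact permutation p = 0.0189, adjusted p = 0.101), which did not pass. It passed in lists of equal length, at a difference of 470 bp (exact permutation p = 0.00162, adjusted p = 0.00866), and by the highest summit, at 359 times the lowest background (exact permutation p = 0.003, adjusted p = 0.016), the latter added after seeing the data. It also passed without ecSE2 replicate 1, at 758 bp (adjusted p = 0.0224), and without combination replicate 2, at 833 bp (adjusted p = 0.0178, exact permutation). In 5 kb bins, 2 of 192 passed for ecSE6 within 2 Mb of MYC (1.04%), none among the 4 tested bins of the 90 kb, where 1 had an unadjusted p under 0.05, against 21 of 192 in the window. With the combination left out 0 passed for ecSE6 (exact permutation, smallest adjusted p = 0.0693). With so few libraries the smallest possible p passes only if many bins share it. For ecSE1, ecSE2 and ecSE7 no bin passed in the window (0% of 192, exact permutation), with unadjusted p under 0.05 in 13, 15 and 4 bins.

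The ecSE6 libraries had 8 member peaks, and the 1 place where peaks of all 3 libraries overlapped was the far edge of the stretch. By the chaining of summits at 250 bp used for COLO320 DM, the summit of replicate 3 formed a site of its own there. A summit 53988, 54112 and 54477 bp after the lower end of MYC held 280, 213 and 135 fragments in the 3 libraries, with folds of 2.26, 2.24 and 2.42 and ranks of 96, 227 and 741. This peak covered 781 of the 1780 bp in replicate 1, all 773 bp in replicate 2 and 510 of the 1005 bp in replicate 3. The other 5 ecSE6 peaks were spread over replicates 1 and 3. No other PC3 DM library had a peak at the edge. It is the edge where ecSE3 was high in COLO320 DM. Just past it, near the start of PVT1, PC3 DM ecSE6 replicates 1 and 3 had a stronger peak of rank 3, with 1099 and 534 fragments.

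In the MYC body, PC3 DM had 3 peaks in all, 1 each in ecSE6 replicate 1, ecSE7 replicate 1 and combination replicate 3, of 351, 177 and 478 bp. In CASC11 no ecSE6 or vector library had a peak, and 2 of 3 ecSE2 libraries had peaks there, of 1151 and 567 bp in all. Peaks in CASC11 also covered 643 bp in combination replicate 1, 210 bp in ecSE7 replicate 1 and 193 bp in ecSE1 replicate 3. The longest PC3 DM list, combination replicate 1 with 102290 peaks, had 6 of the 24 members. The combination minus the vector was 5196 bp in COLO320 DM and 585 bp in PC3 DM, a difference of 4611 bp (exact permutation within lines, p = 0.195). Permuting within lines assumes no difference between the plasmids in either line. This p therefore does not test whether the lines differ by the same amount.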

How the data were processed

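The data were 34 deposited peak lists on hg38, each called on 1 CUT&Tag library. The tools named are MACS2 2.2.7.1, Bowtie2 2.3.5 and Trim Galore 0.6.6, besides bedtools and SAMtools, per the submitters' processing notes, which state neither their order nor their settings. The lists are named for an FDR of 0.001 and for blacklist filtering. Any control library and the treatment of duplicates are not given in the sources used here.

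The authors' score column was not used. The deposited fold is a ratio that the authors' caller took between summit and local background, and the deposited -log10 p and -log10 q values are the authors' Poisson values. The deposited summit offset placed each summit. These values were used within a list. The summit's whole number of fragments and the local background were solved from the fold and -log10 p, within 0.0005 or a relative 0.0001, for 100% of peaks in every list. The lowest background moves with depth and copy number and is the computed scale for heights, not the authors'.

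Sample titles gave the groups and the replicate numbers. Covered length was compared with two-sided exact permutation tests of the difference in means, and with 100000 resamples between lines. Benjamini-Hochberg adjustment was over 10 comparisons with the vector, over 16 of single perturbations, and over all bins with a peak in at least 3 libraries. For 3 libraries against 2 the smallest p of this statistic is 0.1, where the written design had stated a larger one. The segments and the lists were chosen with earlier results of these data known. Named genes were the members, the 13 genes listed as surroundings, and the 5 protein-coding genes most like MYC.

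Numbers did not pair libraries: deviations of same-numbered libraries correlated between -0.10 and 0.207 in COLO320 DM. On simulated lists with 353 bins, the bin test recovered 100% of full separations and from 20 to 40% of changes in 60% of libraries, and called from 0 to 2 of 333 unchanged bins. Computation used scipy 1.17.1, numpy 2.4.6, Python 3.11.15, matplotlib 3.10.9 and pandas 2.3.3.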

Additional observations from a re-analysis of the deposited data

How the results depend on the processing

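The ecSE4 difference in MYC passed under every alternative run except the number of peaks (1.58, exact permutation, adjusted p = 0.0797). That of ecSE3 between MYC and PVT1 failed by number of peaks (2.75), whole peaks by midpoint (2563 bp) and highest summit (894).

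By q-values, with -log10 q of at least 5, 5 bins passed for ecSE4 (3 higher, 2 lower) and 5 for PC3 DM ecSE6. In lists of equal length 5 bins passed for ecSE3 and 5 for PC3 DM ecSE6, whose 470 bp over the 90 kb then passed, and differences that had not passed changed sign for ecSE2 against the vector (-551 bp), ecSE2 and ecSE3 before MYC (129 and 93.9 bp), PC3 DM ecSE2 (-78.0 bp) and ecSE7 (6.76 bp). By number of peaks the sign changed for ecSE1 against the vector (1.33) and in MYC (0.0833), ecSE4 before MYC (-0.333) and PC3 DM ecSE7 (0.436), and by midpoint for ecSE1 in MYC (176 bp) and between MYC and PVT1 (-96.4 bp).

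With the combination left out 0 bins passed for any plasmid. With fewer libraries per test a bin can pass only if many share the smallest p. Without the combination, ecSE1 between MYC and PVT1 (-818 bp) and ecSE2 in MYC (-811 bp) changed sign. Without the 2 lists of over 100000 peaks ecSE1 had 0 bins and 190 bp in MYC. Over the whole genome 0 bins passed, where even the fully separated ecSE4 bins had an adjusted p of 0.727 (exact permutation). Bins of 10 kb gave 1 call for ecSE3 and 5 for ecSE4 (3 higher, 2 lower), and an overlap of at least 500 bp gave 1 each for ecSE1, ecSE2 and ecSE4. With vector libraries alone the lines differed by 9699 bp and could not pass.

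The replicate block, permuting within replicate numbers, brought the bin calls of ecSE1, ecSE3, ecSE4 and PC3 DM ecSE6 to 0. The smallest adjusted p was 0.0523 for the first 3 and 0.0711 for PC3 DM ecSE6 (exact permutation). Permuting within numbers allows fewer arrangements and so a larger smallest p, which limits what the lost bin calls can show. The block left ecSE4 in MYC (adjusted p = 0.00474, exact permutation) and ecSE3 between MYC and PVT1 (adjusted p = 0.00474) past the threshold. Only 7 of 18 COLO320 DM libraries correlated best with their own number, and 3 of 16 in PC3 DM.

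Of the alternatives added after seeing the data, the highest summit made ecSE4 before MYC (2742) and PC3 DM ecSE6 (359) pass and turned ecSE1 between MYC and PVT1 (-633), ecSE2 in MYC (-244), ecSE3 in MYC (-178) and PC3 DM ecSE2 (-140). The percentage of all covered bases made ecSE3 in MYC pass (0.0225 points) and turned ecSE1 in MYC (0.00568), ecSE2 before MYC (0.00805) and beyond it (0.00683), ecSE3 before MYC (0.00614) and PC3 DM ecSE2 (-0.000499). The cause of these changes was not tested.

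Leaving out 1 library at a time moved ecSE1 against the vector between -1877 and 1930 bp and ecSE2 between -1678 and 2355 bp. It moved ecSE1 in MYC between -313 and 269 bp and beyond it between -322 and 662 bp, ecSE2 before MYC between -625 and 6.13 bp, and ecSE3 before MYC between -414 and 238 bp. PC3 DM ecSE7 ran between -281 and 59.5 bp and ecSE6 between 477 and 833 bp. Bins passing ran from 0 to 2 for ecSE1, and from 2 to 5 for ecSE3 and ecSE4. The ecSE4 difference in MYC stayed between 2165 and 2381 bp (adjusted p of 0.00517 or less, exact permutation) and that of ecSE3 beyond MYC between 2540 and 3412 bp (0.0465 or less). Unknown depth limits any comparison of heights between libraries.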

Other observations

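The surroundings of MYC gave a context by group means of covered length over each gene and 2 kb on each side. MIR1204, at the start of PVT1, had 2719 bp with ecSE3 and 2549 bp with the combination in COLO320 DM, and no peak in vector, ecSE1, ecSE2 or ecSE4 libraries. In PC3 DM it had 1410 bp with ecSE6 and 1306 bp with the combination, with a peak in all 3 libraries of each. There ecSE2 had 70 bp and ecSE7 144.5 bp, each from 1 library, and the vector and ecSE1 had none. The values that follow are of COLO320 DM. PVT1 had 17888 bp with the vector, 30316 bp with ecSE3 and 29412 bp with ecSE4. LRATD2 had no peak in vector libraries, a mean of 1760 bp in those of ecSE2 and of 778 bp in the combination. CCAT2 averaged 632 bp in vector libraries, 3338 bp in those of ecSE2 and 3659 bp in the combination. PCAT1, PRNCR1, CASC19, CCAT1, CASC21, CASC8 and POU5F1B had a peak in every COLO320 DM library, while GSDMC had none with the vector, ecSE2, ecSE4 or the combination and CCDC26 had 459 bp with the vector, 855 bp with the combination, 1051 bp with ecSE2, 1753 bp with ecSE3, 1788 bp with ecSE1 and 1922 bp with ecSE4. These are descriptions with 2 or 3 libraries a group and no test.

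Over the 18 COLO320 DM libraries, the protein-coding genes outside 2 Mb whose covered length was most like that of MYC, each with 2 kb on each side, were HEATR5A (r = 0.813), BEND6 (r = 0.663), SLC39A12 (r = 0.635), GNG2 (r = 0.632) and CMPK2 (r = 0.612), of 3667 genes with a peak in at least 6 libraries. The points share libraries and list lengths. The genes were picked as the highest of 3667 correlations, and what so many would give by chance was not tested. HEATR5A had 802 bp in ecSE4 and combination libraries and 275 bp in the others, values that come from the same selection.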
